A study of Mus musculus with 12 samples.

Results

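The 47 genes described here encode the core machinery that copies nuclear DNA: the origin recognition complex, the factors that load the MCM helicase, the helicase and its activators, the replicative polymerases, the sliding clamp and its loader, the single-strand binding protein RPA, the enzymes that join Okazaki fragments, the proteins that protect the fork, and the enzymes that supply nucleotides. They were chosen by gene symbol from this known function, without a cut on measured values but with earlier results of these data known. All 47 were found among the 25078 genes of the deposited tables, and all 47 were among the 14599 genes that passed the filter on low counts. In every library each had at least 1451 counts, so counting error was small beside the differences between animals.

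RNA was measured in 12 libraries of LSK cells, the lineage-negative, Sca1-positive and c-Kit-positive bone marrow fraction that holds mouse blood stem and early progenitor cells. The donors were wild-type mice (WT) and mice at a preleukemic stage that carry Cbfb-MYH11 (CM), the fusion made by inversion 16 in acute myeloid leukemia. The cells were sorted first and then given 3.5 Gy of radiation (IR) or kept through the same incubation without it (NIR), and RNA was taken 24 h later. The 4 groups were therefore WT NIR, WT IR, CM NIR and CM IR, with 3 libraries each, and every library, irradiated or not, had been through the same time outside the animal. Cells of an animal were split over both conditions, which makes 6 animals in all, so the replicates of a group are separate animals, and the NIR and IR groups of a genotype come from the same 3 animals. The labels do not say how the fusion was switched on, how old the mice were or whether cells of several mice were pooled; the library names mark WT animals 1 and 3 as C, WT animal 2 as WT and the CM animals as CHW, without saying what these stand for.

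Depth ran from 68.5 to 110.8 M counts per library. Kit, the receptor used in the sort, stood at 148 to 284 CPM and Ly6a, which encodes Sca1, at 42.0 to 457 CPM, while Ly6g, a defining marker of neutrophils, and Cd3e, one of T cells, were at or under 0.389 CPM. The 9 markers of mature neutrophils summed to 142 to 1562 CPM and went opposite ways: Mmp8 (61.5 to 1427 CPM) and Cxcr2 (14.2 to 118 CPM) were highest in the 4 libraries of CM animals 1 and 3, while S100a8 (3.09 to 121 CPM) was highest in WT. The 8 T and NK cell markers summed to 8.22 to 40.6 CPM, most of it from Nkg7 (7.29 to 39.6 CPM). The last CM pair stood apart: across all genes the NIR and IR libraries of CM animal 3 deviated from their group means with a correlation of only 0.125, against 0.412 to 0.844 in the other 5 animals, and the NIR library was closest to the IR library of CM animal 1 (0.686). The NIR library of WT animal 3 was also slightly closer to the IR library of CM animal 2 (0.433) than to its own (0.412). Between the NIR and IR libraries of CM animal 3, Ly6a went from 457 to 144 CPM. Mecom, a stem cell transcription factor, went from 1.04 to 10.4 CPM there. The summed level of 7 mast cell and basophil markers was 1094 to 1513 CPM in both libraries of CM animal 1 and in CM NIR 3, 807 CPM in CM IR 3, and 148 to 464 CPM in the other 8 libraries. The 6 macrophage markers summed to 1541 to 1844 CPM in those first 3 libraries, 1133 CPM in CM IR 3 and 337 to 1085 CPM elsewhere. Their part in the differences below was not tested. For comparisons that use CM libraries, counts of members called or fitted lower and their medians are given without CM animal 3 too, as are fitted values of genes listed library by library whose sign changes or whose size moves by over 1.5 times when it is left out. Library numbers in the labels fall in 2 series, with WT animal 1 and CM animals 1 and 2 in series A and the other 3 animals in series B.

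Replication starts in G1, when the origin recognition complex, CDC6 and CDT1 load the MCM helicase as an inactive ring on origins, a step that geminin blocks later in the cycle by holding CDT1. In S phase CDC45 and the GINS complex turn the loaded ring into an active helicase, primase and polymerase alpha lay down primers, and polymerases delta and epsilon extend them on the PCNA clamp. Many of these genes are transcribed under E2F control as cells enter S phase, so in blood progenitors their RNA follows the number of cycling cells, and radiation that halts the cycle can lower it; p53 target genes include a subunit of ribonucleotide reductase, Rrm2b.

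Promoters of the replication genes carried E2F-type letters more often than promoters in general. The motif TTTNNCGC was searched on both strands in RefSeq windows (GRCm38.p6) from 250 bases before to 50 after each gene's start. It was found in 16 of the 38 members that have an entry (42.1%), against 5.93% of all 27025 genes. CCAAT was found in 23 of the 38 (60.5%, against 41.1% of all genes) and TTTGAA, the cell cycle homology element of mitotic genes, in 5 (13.2%, against 20.2%). A match is a description of the letters, not a measured binding site. The windows below lie before the start of 3 members with matches and show the motif in its surroundings, with E2F-type matches in capitals: Mcm6 (chr1:128359715-128359832, minus strand), with 3 matches, Mcm5 (chr8:75109280-75109397, plus strand), with 2 overlapping ones, and Pola1 (chrX:93632256-93632373, minus strand), with 1. The shorter stretches are the matches of Cdc6 (chr11:98908002-98908031, plus strand) and Orc1 (chr4:108579416-108579445, plus strand), 2 genes whose values are given below. The Cdc6 stretch lies before the RefSeq start but inside the gene span of the deposited tables, which begins at 98907801. All sequences are written 5′ to 3′ on the gene's strand.
Mcm6: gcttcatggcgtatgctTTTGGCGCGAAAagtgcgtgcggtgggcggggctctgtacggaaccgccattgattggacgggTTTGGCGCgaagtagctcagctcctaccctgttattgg
Mcm5: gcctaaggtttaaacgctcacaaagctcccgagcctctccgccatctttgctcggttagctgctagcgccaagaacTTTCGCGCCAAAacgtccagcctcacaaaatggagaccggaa
Pola1: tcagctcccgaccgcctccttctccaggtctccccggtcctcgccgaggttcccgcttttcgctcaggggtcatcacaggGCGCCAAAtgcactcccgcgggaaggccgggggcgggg
Cdc6: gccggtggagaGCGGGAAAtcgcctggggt
Orc1: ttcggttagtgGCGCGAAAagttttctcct

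Per length, the helicase and the nucleotide enzymes were the most abundant members. Mean RPKM over the 12 libraries was highest for Rrm2, the small subunit of ribonucleotide reductase (168), followed by Mcm3 (151), Rrm1 (151), Mcm6 (141) and Mcm5 (113). Pcna stood at 113 RPKM, Mcm4 at 104, Mcm2 at 93.3 and Mcm7 at 91.7, so the 6 helicase subunits lay within a range of 91.7 to 151 RPKM. The origin recognition complex was less abundant and less even, from 9.61 RPKM for Orc4 and 13.2 for Orc1 to 37.3 for Orc2 and 39.1 for Orc6. Gins3, a subunit of GINS, had the lowest mean of all 47 (9.49 RPKM), while the other GINS genes stood at 26.8 to 37.0 RPKM. Members varied little over the series: the highest library was 1.13 times the lowest for Rpa1 and 2.35 times for Pold1, the 2 ends of the range.

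**Figure D1:**
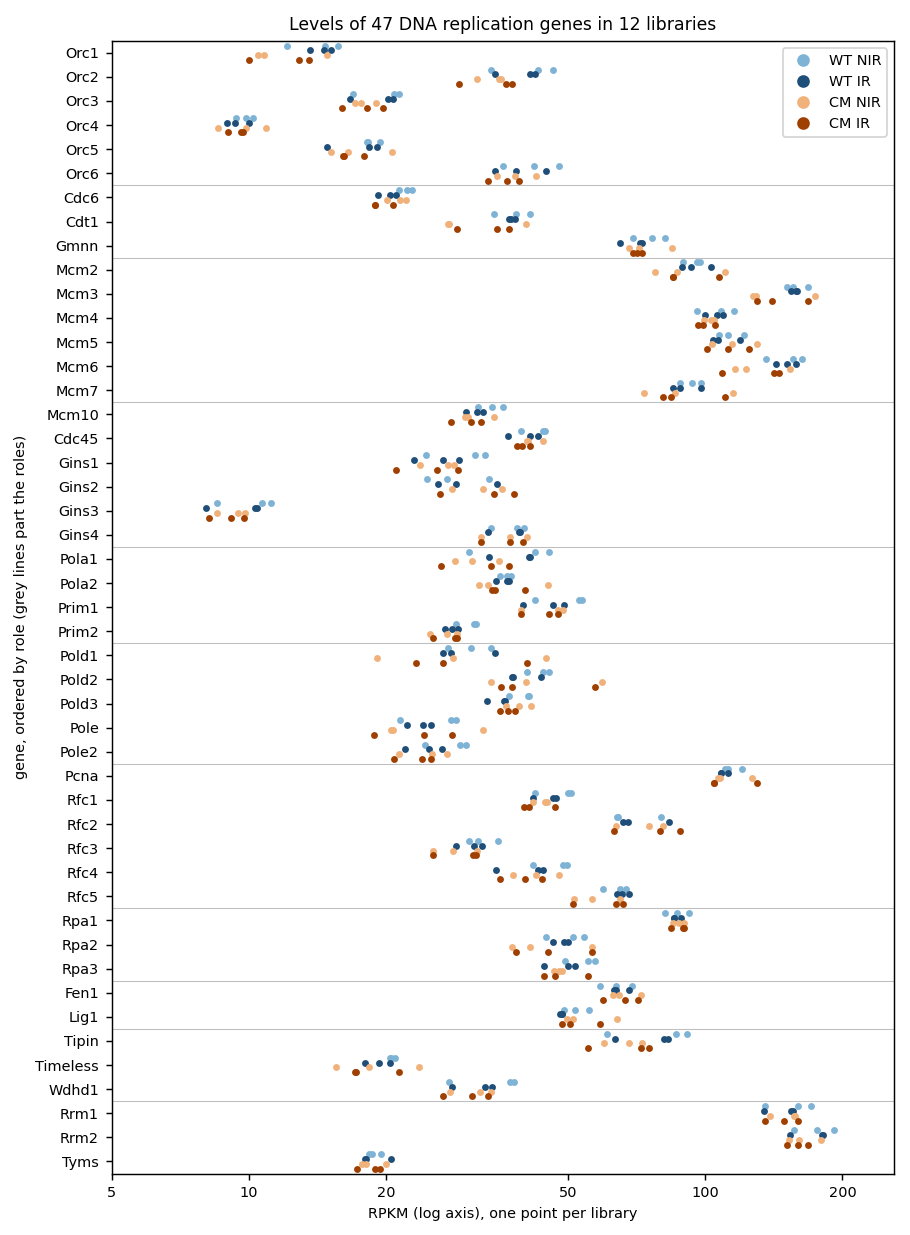
RPKM (log axis) of the 47 replication genes, ordered by role on the vertical axis, with 1 point for each of the 12 libraries coloured by group. The 4 groups lie on top of each other for most genes, and Pold1 spreads most, from 19.1 to 44.8 RPKM.

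Libraries differed more by animal than by group. Relative level here is the log2 CPM of a gene minus its mean over the 12 libraries, averaged over the 47 members. It was -0.027, 0.075 and 0.15 in WT NIR animals 1, 2 and 3, and -0.062, 0.0065 and 0.049 in their IR libraries. In CM it was -0.11, 0.11 and -0.061 without and -0.18, 0.055 and -0.012 after irradiation. CM animal 1 was lowest in both states and the NIR library of WT animal 3 highest. In WT the group means were 0.067 ± 0.089 without and -0.0020 ± 0.056 after irradiation, and in CM -0.020 ± 0.12 and -0.044 ± 0.12 (SD, n = 3), so the groups overlapped. In series B the mean was 0.11 in WT NIR, 0.028 in WT IR, -0.061 in CM NIR and -0.012 in CM IR, and in series A -0.027, -0.062, 0.0003 and -0.061, so the genotype difference without irradiation went opposite ways in the 2 series. Each series holds 1 or 2 animals of a genotype, too few for a test within it.

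**Figure D2:**
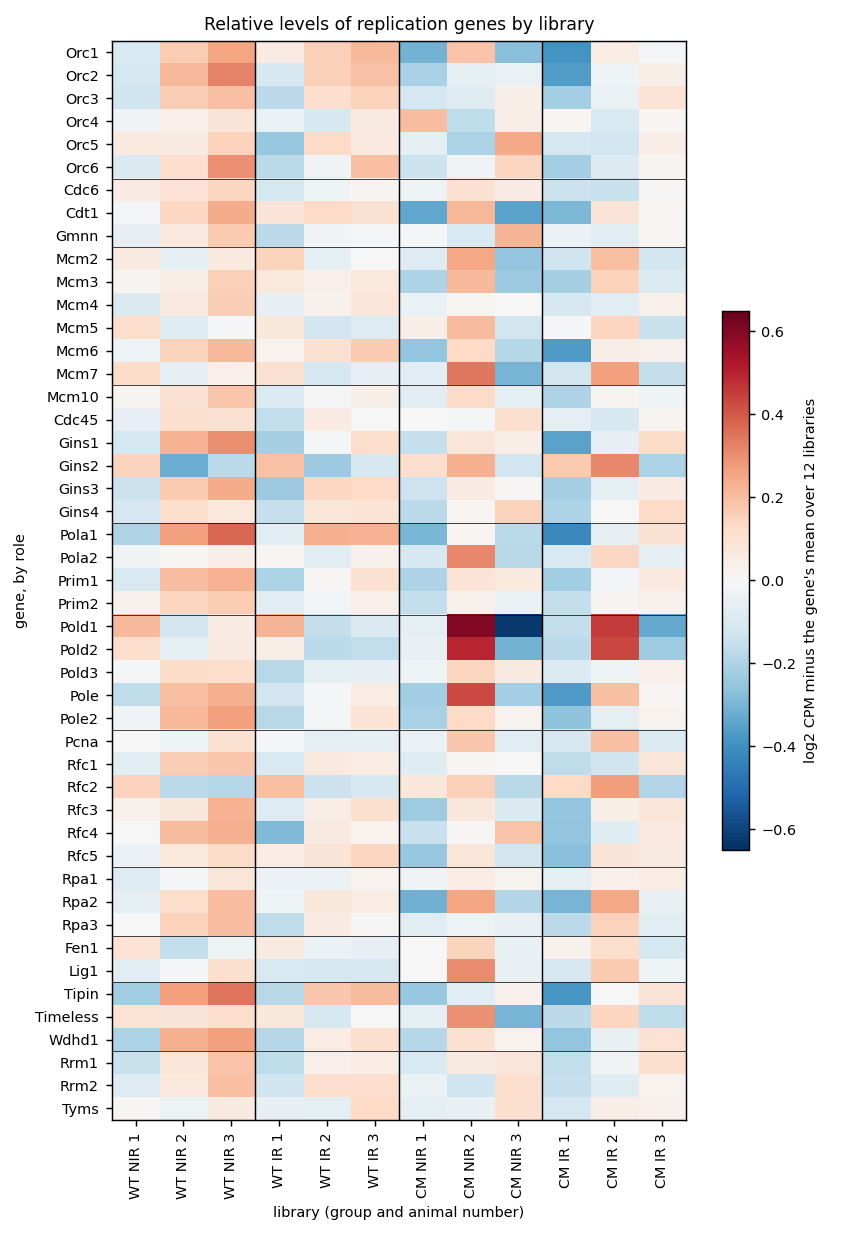
Relative level (log2 CPM minus the gene's mean over 12 libraries, colour scale) of the 47 genes in rows, ordered by role, and the 12 libraries in columns. The columns of CM animal 1 are mostly blue, with 4 of 47 members above their mean in each, and WT NIR 3 is mostly red, with 43 of 47 above.

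The first comparison asked what irradiation did to these genes in WT cells. None of the 47 passed the test at 24 h, and the changes were small: fitted log2 fold changes of IR over NIR ran from -0.21 for Rfc4, a clamp loader subunit, to 0.064 for Gins2. In edgeR's quasi-likelihood test with Benjamini-Hochberg adjustment over all genes, 0 members were called (17 of all 14599 genes, 0.116%), and 0 in DESeq2 (0.959% of all genes), in limma-voom (0.212%) and with the animal as a block (1.12%). At an unadjusted p under 0.05, 1 member was called, Pold3, against 4.05% of all genes. With the block, 10 members had an unadjusted p under 0.05 and a lower level (6.4% of all genes were so), all of them short of the adjusted threshold. The direction leaned one way: 41 of 47 members were fitted lower in IR (52.6% of all genes), with a median of -0.066 against -0.0089 over all genes. The median ran from -0.13 without WT NIR animal 1 to -0.027 without WT NIR animal 3, with 42 and 28 members fitted lower. All 47 95% intervals lay within 1 log2 unit of 0 and 42 within 0.5, so 2-fold changes lie outside them, while changes of the size fitted do not.

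Erythroid markers were lower after irradiation beside these genes. The 16 markers, with 4 globin genes listed at 0, summed to 713 to 1115 CPM in WT NIR, 666 to 782 CPM in WT IR, 648 to 741 CPM in CM NIR and 606 to 619.7 CPM in CM IR. The sum was lower in all 6 animals. Most of each sum came from Tfrc (373 to 780 CPM). Tfrc itself was higher after irradiation in CM animal 3 (427 to 463 CPM) and lower in the other animals. In each animal 8 to 12 of the 12 markers above 0 were lower, 5 of them in all 6 animals, and 0 were called by edgeR in WT or CM. The mean relative level of the 12 (log2 CPM minus the mean over the 12 libraries) went from 2.25, -0.83 and -0.098 to -0.30, -1.82 and -1.39 in WT animals 1, 2 and 3. In the CM animals it went from 1.15, 0.19 and 1.43 to 1.06, -1.54 and -0.10. Macrophage markers moved as well, but not the same way in all animals. Of the 6, 5 were lower after irradiation in WT animal 1 and 6 in CM animal 3. In WT animals 2 and 3 and in CM animals 1 and 2, 0 were lower. The part of either list in the lower values of the replication genes was not tested.

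In CM cells the fitted log2 fold changes ran from -0.13 for Cdc6 to 0.075 for Cdt1, the factor that loads the helicase with it. Again 0 members were called by edgeR (1 of all genes, 0.00685%), 0 at an unadjusted p under 0.05 (1.62% of all genes), and 0 by DESeq2 (0.123%), by limma-voom (0.00685%) or with the block (0%). In the fit 33 of 47 were lower (50.4% of all genes), with a median of -0.030. Without CM animal 3 the median was -0.057, with 37 lower and 0 called (0 of all genes). Without CM IR animal 1 the median was 0.035 with 18 lower, and without CM NIR animal 2 it was 0.019 with 19 lower, so a single library set its sign. All 47 intervals lay within 1 log2 unit and 44 within 0.5.

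Averaged over both genotypes, 0 members were called (45 of all genes, 0.308%), 0 by DESeq2 (1.16%), limma-voom (0.295%) and the block (2.07%), and 2 at an unadjusted p under 0.05, Cdc6 and Pold3 (5.19% of all genes). Fitted lower were 40 of 47 (50.9% of all genes), with a median of -0.042. Leaving out CM animal 3 gave 42 and -0.052, with 0 called and 1, Cdc6, at an unadjusted p under 0.05 (4.07% of all genes). Within animals, the mean difference over the members (log2 CPM, IR minus NIR) was -0.035, -0.069 and -0.10 in WT animals 1, 2 and 3, -0.066 and -0.056 in CM animals 1 and 2, and 0.050 in CM animal 3 (0.0105 there with RLE scaling of the libraries). Lower in IR were 29, 41 and 42 of 47 members in the WT animals and 40, 34 and 18 in the CM animals, against 47.1 to 52% of all genes in the 6 animals. Lower in all 3 WT animals were 24 members (51.1%, against 22.3% of all genes), and in all 3 CM animals 8 (17%, against 11.4%). Without CM animal 3, 29 members were lower in both other CM animals (61.7%, against 29.8%). Lower in all 6 animals were 7 members (14.9%, against 6.58%): Orc6, Cdc6, Mcm5, Cdc45, Pold3, Pole2 and Rfc4. Without CM animal 3, 18 were lower in all 5 animals (38.3%, against 12%). Counting members lower in at least 5 of the 6 animals gave 23 (48.9%, against 20.1%). None was higher in all 6 (5.93% of all genes were) or in all 3 CM animals (11.4%), and Gins2, Rfc2 and Rfc5 were higher in all 3 WT animals (6.38%, against 19.9%). Some of the members named from these counts, Mcm5, Pole2, Gins2, Rfc2, Rfc5, Lig1, Timeless and Pold1, lie outside the naming rule and were chosen after their values were seen.

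**Figure D3:**
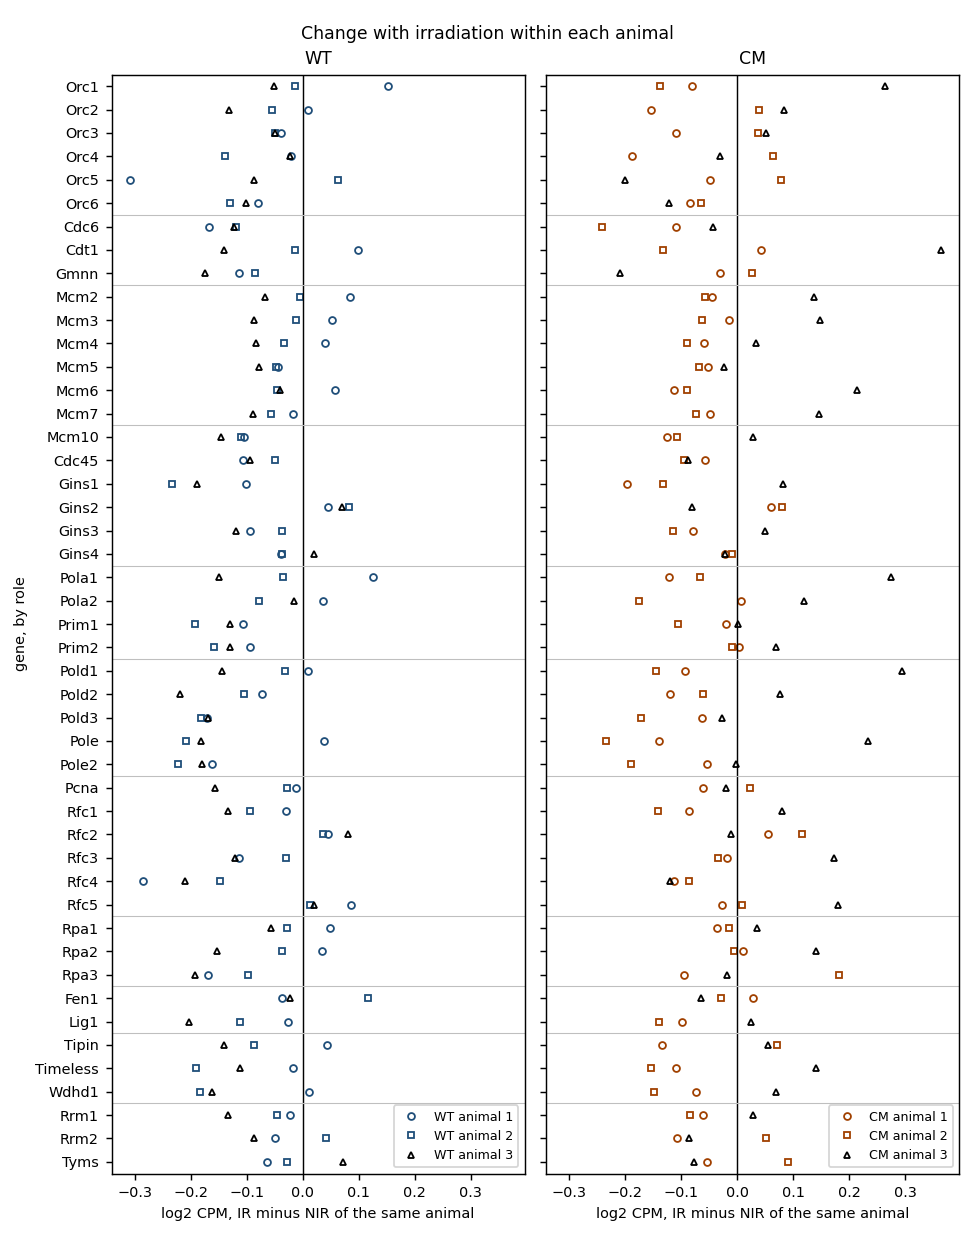
Change with irradiation within each animal (log2 CPM, IR minus NIR) for the 47 genes by role, WT animals on the left and CM animals on the right, 1 symbol per animal. Most WT symbols lie left of 0, and the black triangles of CM animal 3 lie right of 0 for 29 of 47 genes.

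The WT NIR and WT IR libraries did not overlap for 4 members, all lower in IR: Cdc6, Pold3, Lig1 and Timeless (8.51%, against 6.63% of all genes), and for 0 members higher (7.47% of all genes). In CM, 0 members were without overlap in either direction (0.986% of all genes lower, 1.57% higher).

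The origin recognition complex marks the sites where helicases are loaded. Orc1, its ATPase subunit that comes and goes with the cycle (chromosome 4, 108579454 to 108614831, plus strand, mm10), stood at 37.2, 44.7 and 47.7 CPM in WT NIR, 41.4, 44.3 and 46.0 in WT IR, 32.2, 45.3 and 33.0 in CM NIR, and 30.4, 41.1 and 39.7 in CM IR. It was lowest in both libraries of CM animal 1, and all 3 CM IR libraries were under all 3 WT IR libraries, while the NIR groups overlapped. Its log2 fold change of CM over WT was -0.24 ± 0.16 in IR (SE, interval -0.60 to 0.11, edgeR adjusted p = 0.628) and -0.23 ± 0.16 in NIR. Orc2, a core subunit (chromosome 1, 58462771 to 58505109, minus strand), stood at 123, 155 and 167 CPM in WT NIR, 124, 149 and 153 in WT IR, 115, 128 and 129 in CM NIR, and 104, 131 and 137 in CM IR. WT animals 2 and 3 were highest in both states and CM IR 1 lowest, and the groups overlapped because WT animal 1 lay among the CM libraries. The log2 fold change of CM over WT was -0.26 ± 0.14 in NIR (adjusted p = 0.434) and -0.19 ± 0.14 in IR (adjusted p = 0.668). Orc6, the smallest subunit (chromosome 8, 85299632 to 85308279, plus strand), was at 61.0, 70.2 and 80.2 CPM in WT NIR, 57.7, 64.2 and 74.7 in WT IR, 59.3, 64.1 and 71.8 in CM NIR, and 55.9, 61.3 and 66.0 in CM IR. Each of the 6 animals was lower after irradiation, with log2 differences of -0.064 to -0.13, less than the distance between animals, so the groups overlapped. For Orc3, Orc4 and Orc5 the differences within animals ran from -0.31 to 0.077. The span of Orc5, from gene start to gene end, overlaps that of Gm15421 on the same strand, so their reads may have been shared. Overlaps here and below are of gene spans, and whether exons overlap was not checked.

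CDC6 and CDT1 load the helicase and geminin restrains CDT1. Cdc6 (chromosome 11, 98907801 to 98923942, plus strand) stood at 109, 112 and 116 CPM in WT NIR, 97.4, 103 and 107 in WT IR, 103, 113 and 109 in CM NIR, and 95.7, 95.4 and 106 in CM IR. All 3 WT IR libraries were under all 3 WT NIR libraries, and every animal was lower after irradiation: the log2 differences were -0.17, -0.12 and -0.12 in WT and -0.11, -0.24 and -0.044 in CM. The fitted log2 fold changes were -0.14 ± 0.075 in WT and -0.13 ± 0.075 in CM, or -8.99% and -8.66%, and did not pass (adjusted p = 1 in both). Averaged over both genotypes the value was -0.13 ± 0.053 (unadjusted p = 0.0303, adjusted p = 0.786), and -0.13 ± 0.035 with the animal as a block (adjusted p = 0.126); without CM animal 3 it was -0.15 ± 0.056. Cdt1 (chromosome 8, 122568015 to 122573130, plus strand) was at 76.9, 85.3 and 91.8 CPM in WT NIR, 82.4, 84.5 and 83.3 in WT IR, 61.5, 90.1 and 61.0 in CM NIR, and 63.3, 82.2 and 78.5 in CM IR. CM NIR 1, CM NIR 3 and CM IR 1 were low, and CM NIR 2 lay within the WT range. The IR groups did not overlap, CM being lower, yet the log2 fold change of CM over WT was only -0.16 ± 0.16 there (adjusted p = 0.758) and -0.26 ± 0.16 in NIR (adjusted p = 0.482; -0.16 ± 0.17 without CM animal 3). Gmnn, geminin (chromosome 13, 24751845 to 24761937, minus strand), was at 69.3, 75.3 and 80.9 CPM in WT NIR, 64.1, 71.0 and 71.7 in WT IR, 71.5, 67.3 and 84.0 in CM NIR, and 70.0, 68.5 and 72.7 in CM IR. It was lower after irradiation in 5 of the 6 animals, with -0.13 in the WT fit and -0.077 in the CM fit (0.0070 ± 0.11 without CM animal 3), and the groups overlapped.

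The MCM2-7 ring is the replicative helicase. Mcm2 (chromosome 6, 88883474 to 88898780, minus strand) stood at 331, 305 and 332 CPM in WT NIR, 351, 303 and 317 in WT IR, 299, 378 and 266 in CM NIR, and 289.6, 363 and 292 in CM IR. Both libraries of CM animal 2 were the highest 2 and CM NIR 3 was lowest, and no group stood apart: the fitted changes with irradiation were 0.0061 ± 0.14 in WT and 0.0037 ± 0.14 in CM (-0.041 ± 0.15 without CM animal 3). Mcm3 (chromosome 1, 20802968 to 20820312, minus strand), the most abundant ring subunit per length, was at 468, 476 and 516 CPM in WT NIR, 486, 472 and 485 in WT IR, 402, 535 and 392 in CM NIR, and 398, 512 and 434 in CM IR. CM animals 1 and 3 were lower than WT in both states and CM animal 2 was not, giving -0.13 ± 0.13 for CM over WT in NIR (adjusted p = 0.660; -0.052 ± 0.14 without CM animal 3). With both libraries of CM animal 2 left out, Mcm3 (-0.29 ± 0.077, edgeR adjusted p = 0.0358) and Cdt1 (-0.47 ± 0.11, adjusted p = 0.0250) passed in that comparison. They were the only members called in any comparison under the alternatives run. The share of all genes called in that fit is not given here, so these calls cannot be read as particular to the members. Mcm5 (chromosome 8, 75109509 to 75128439, plus strand) was lower in all 6 animals, with log2 differences of -0.024 to -0.077. The other subunits, Mcm4, Mcm6 and Mcm7, were each higher in CM animal 3 after irradiation and lower in CM animals 1 and 2. The median over the 6 genes was -0.023 in WT and -0.0001 in CM (-0.051 without CM animal 3). The Mcm7 gene also holds the miRNA genes Mir106b, Mir25 and Mir93, each at a mean of 0.471 CPM or less.

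CDC45, GINS and MCM10 turn the loaded ring into a running helicase. Cdc45 (chromosome 16, 18780447 to 18811972, minus strand) stood at 90.1, 100.4 and 99.9 CPM in WT NIR, 83.7, 97.0 and 93.6 in WT IR, 93.2, 92.9 and 100.4 in CM NIR, and 89.5, 87.0 and 94.4 in CM IR. It was lower after irradiation in all 6 animals, with differences of -0.049 to -0.11, and the groups overlapped (fitted -0.082 ± 0.083 in WT and -0.080 ± 0.083 in CM, the latter -0.066 ± 0.10 without CM animal 3). Mcm10 and Gins3 were lower in all 3 WT animals and in CM animals 1 and 2, and so was Gins1, whose differences there were -0.10 to -0.23. Gins2 went the other way in 5 of the 6 animals, with differences of 0.045 to 0.083, and stood at -0.081 in CM animal 3. Its gene span overlaps that of Gse1 on the opposite strand. Because the strand setting of the counting is not given in the sources used here, reads of the 2 genes may be mixed.

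Polymerase alpha and primase make the primers. Pola1, the catalytic subunit (chromosome X, 93304766 to 93632155, minus strand), was at 166, 229 and 247 CPM in WT NIR, 181, 223 and 222 in WT IR, 155, 192 and 168 in CM NIR, and 142, 183 and 203 in CM IR. WT animals 2 and 3 were highest, both libraries of CM animal 1 were low, and WT animal 1 lay inside the CM range, so the groups overlapped. Its log2 fold change of CM over WT, -0.32 ± 0.17 in NIR (interval -0.70 to 0.069, adjusted p = 0.434), was the lowest of the 47, and it was -0.24 ± 0.17 in IR (adjusted p = 0.658). Prim1, the catalytic primase subunit (chromosome 10, 128015215 to 128030030, plus strand), was at 66.5, 82.0 and 83.3 CPM in WT NIR, 61.7, 71.7 and 76.2 in WT IR, 61.9, 75.8 and 74.4 in CM NIR, and 61.0, 70.4 and 74.5 in CM IR. All WT animals were lower after irradiation, with differences of -0.11, -0.19 and -0.13, and so were CM animals 1 and 2, the CM differences being -0.021, -0.11 and 0.0010. Prim2, the large primase subunit (chromosome 1, 33453808 to 33669794, minus strand), was at 57.2, 62.0 and 62.9 CPM in WT NIR, 53.6, 55.6 and 57.5 in WT IR, 50.5, 57.3 and 54.5 in CM NIR, and 50.5, 56.9 and 57.2 in CM IR. All 3 WT animals were lower after irradiation (-0.094, -0.16 and -0.13), and the CM animals lay on both sides of 0 (0.0021, -0.0098 and 0.069). The difference of the responses was 0.15 ± 0.12 (edgeR adjusted p = 1), the smallest p of any member in that comparison, and Prim2 also had the smallest p of CM over WT in NIR (-0.17 ± 0.085, unadjusted p = 0.0766, adjusted p = 0.3996). Both comparisons use the WT NIR and CM NIR libraries, so they are not separate evidence.

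Polymerases delta and epsilon copy the lagging and the leading strand. Pold3, an accessory subunit of delta (chromosome 7, 100082110 to 100121502, minus strand), stood at 114, 125 and 124 CPM in WT NIR, 101, 109.9 and 111 in WT IR, 113, 127 and 119.9 in CM NIR, and 108, 112 and 118 in CM IR. All 3 WT IR libraries were under all WT NIR libraries and the 3 WT differences were close to each other, -0.17, -0.18 and -0.17, while those in CM were -0.063, -0.17 and -0.027. The fitted log2 fold change in WT, -0.17 ± 0.077 (interval -0.35 to -0.0021, unadjusted p = 0.0478, adjusted p = 1), or -11.4%, was not past the adjusted threshold, and in CM it was -0.088 ± 0.077. Averaged over genotypes it was -0.13 ± 0.055 (adjusted p = 0.847, and 0.0991 with the block). Pold2, the second delta subunit (chromosome 11, 5872180 to 5878256, minus strand), was at 78.7, 69.5 and 75.6 CPM in WT NIR, 74.8, 64.6 and 64.9 in WT IR, 70.2, 102 and 58.6 in CM NIR, and 64.6, 97.9 and 61.8 in CM IR. CM animal 2 was highest in both states, far above the other CM animals, so the CM groups were wide and covered the WT range (CM over WT 0.046 ± 0.22 in NIR, interval -0.43 to 0.52; 0.21 ± 0.20 without CM animal 3). Pold1, the catalytic subunit, showed the same shape more strongly, from 66.4 CPM in CM NIR 3 to 155 CPM in CM NIR 2, and had the widest interval of all members in every comparison, -0.69 to 0.59 for irradiation in WT. Pole2, an epsilon subunit, was lower in all 6 animals, with differences of -0.16, -0.22 and -0.18 in WT and -0.055, -0.19 and -0.0017 in CM. All 5 genes of this role were fitted lower with irradiation in both genotypes, with medians of -0.13 and -0.063 (-0.11 in CM without CM animal 3).

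PCNA is the ring that holds polymerases on DNA, and the RFC complex loads it. Pcna, which is also a p53 target (chromosome 2, 132249286 to 132253180, minus strand), stood at 144, 140.2 and 154 CPM in WT NIR, 143, 138 and 138 in WT IR, 139, 162 and 137 in CM NIR, and 133, 165 and 135 in CM IR. WT NIR 3 and both libraries of CM animal 2 were high, the rest lay between 133 and 144 CPM, and irradiation gave -0.066 ± 0.10 in WT and -0.018 ± 0.10 in CM (-0.0055 ± 0.12 without CM animal 3). Rfc4 (chromosome 16, 23113948 to 23127730, minus strand) was at 52.1, 60.0 and 61.1 CPM in WT NIR, 42.7, 54.2 and 52.8 in WT IR, 47.1, 52.4 and 59.2 in CM NIR, and 43.5, 49.4 and 54.4 in CM IR. It was lower after irradiation in all 6 animals, -0.29, -0.15 and -0.21 in WT and -0.11, -0.087 and -0.12 in CM, but animals differed as much and WT IR 2 and 3 overlapped WT NIR 1. Its log2 fold change in WT was -0.21 ± 0.13 (interval -0.50 to 0.080, adjusted p = 1), the lowest of the 47. Averaged over genotypes it was -0.16 ± 0.093, and with the block -0.16 ± 0.033 (adjusted p = 0.0649), the smallest adjusted p of any member with irradiation, still above 0.05. The gene span of Rfc4 overlaps that of Eif4a2, on the opposite strand, by 185 bases. Eif4a2 was at 288 CPM, so some counts of Rfc4 may belong to that gene. Rfc2 and Rfc5 were higher after irradiation in all WT animals, with differences of 0.037 to 0.082 and 0.014 to 0.086.

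RPA covers the single strands behind the helicase. Rpa1, the large subunit (chromosome 11, 75300259 to 75348383, minus strand), was at 259, 272 and 289.7 CPM in WT NIR, 268, 267 and 278 in WT IR, 271, 284 and 277 in CM NIR, and 264, 281 and 284 in CM IR. Its 12 values were the most even of all members and its intervals the narrowest, -0.17 to 0.14 for irradiation in WT and -0.14 to 0.18 for CM over WT in NIR. Rpa3, the small subunit (chromosome 6, 8255936 to 8259141, minus strand), was at 32.2, 35.7 and 36.9 CPM in WT NIR, 28.6, 33.4 and 32.3 in WT IR, 30.5, 31.4 and 31.0 in CM NIR, and 28.6, 35.6 and 30.6 in CM IR. The 3 CM NIR libraries were under the 3 WT NIR libraries, the only member of which this held without irradiation (2.13%, against 7.84% of all genes), with a log2 fold change of -0.17 ± 0.11 (adjusted p = 0.483). After irradiation all WT animals were lower and CM IR 2 was higher than its NIR library, so the groups overlapped (0.0076 ± 0.11, and 0.042 ± 0.13 without CM animal 3), and the difference of responses was 0.18 ± 0.15 (interval -0.15 to 0.51, adjusted p = 1; 0.21 ± 0.18 without CM animal 3).

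FEN1 and DNA ligase I trim and seal Okazaki fragments. Fen1 (chromosome 19, 10199132 to 10204393, minus strand) stood at 183, 155 and 168 CPM in WT NIR, 179, 168 and 165 in WT IR, 172, 190.1 and 166 in CM NIR, and 175, 186 and 159 in CM IR. CM NIR 2 was highest and WT NIR 2 lowest, and the fitted changes with irradiation were 0.017 ± 0.094 in WT and -0.021 ± 0.094 in CM (0.0085 ± 0.11 without CM animal 3). Lig1 was lower in IR in all WT animals and CM animals 1 and 2. Its gene span overlaps that of Zswim9, on the opposite strand and at 3.44 CPM, by 1409 bases. The span of Fen1 likewise shares 192 bases with that of Tmem258, at 63.4 CPM.

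TIMELESS, TIPIN and WDHD1 keep helicase and polymerases together. Tipin (chromosome 9, 64281585 to 64305422, plus strand) was at 116, 163 and 172 CPM in WT NIR, 119.5, 153 and 156 in WT IR, 114, 129 and 138 in CM NIR, and 104, 135 and 143 in CM IR. It was high in WT animals 2 and 3 and low in WT animal 1 and CM animal 1 in both states, with overlapping groups and -0.24 ± 0.18 for CM over WT in NIR (adjusted p = 0.553). Timeless ranged from 81.9 to 92.9 CPM in WT IR against 93.4 to 95.3 CPM in WT NIR, groups that came close without overlapping. Wdhd1 was lower in 4 of the 6 animals.

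Ribonucleotide reductase and thymidylate synthase supply the building blocks. Rrm2 (chromosome 12, 24708254 to 24714146, plus strand) stood at 349, 388 and 423 CPM in WT NIR, 338, 399 and 399 in WT IR, 359, 338 and 399 in CM NIR, and 333, 350.1 and 376 in CM IR. WT NIR 3 was highest and CM IR 1 lowest, 4 of 6 animals were lower after irradiation, and the fitted changes were -0.031 ± 0.11 in WT and -0.050 ± 0.11 in CM (-0.019 ± 0.13 without CM animal 3). Rrm1 was lower in all animals but CM animal 3, and Tyms, at 66.4 to 78.8 CPM, had differences of -0.077 to 0.090.

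The genotype comparison asked whether preleukemic cells carried more or less of this machinery. Without irradiation 0 members were called by edgeR (237 of all genes, 1.62%), 0 at an unadjusted p under 0.05 (15.1% of all genes), and 0 by DESeq2 (6.32%), by limma-voom (1.49%) or by limma-voom with the animal as a block (0.0342%). Fitted values leaned lower in CM: 36 of 47 members (47.4% of all genes), with a median of -0.088 against 0.017 over all genes, from -0.32 for Pola1 to 0.18 for Gins2. The median was -0.16 without CM NIR animal 2, -0.048 without CM NIR animal 1, -0.032 without WT NIR animal 3, and -0.043 with a term for the library series. Without both libraries of CM animal 3 it was -0.084, with 32 fitted lower (68.1%, against 47.1% of all genes) and 0 called (0.993% of all genes). After irradiation 0 members were called (97 of all genes, 0.664%), 0 at an unadjusted p under 0.05 (11.8% of all genes), and 0 by DESeq2 (4.47%), limma-voom (1.07%) or the block (0.089%). There 31 of 47 were fitted lower (47.1% of all genes) with a median of -0.038, which was -0.056 with 31 lower and 0 called without CM animal 3, 0.031 with 18 lower without CM IR animal 1 and -0.0009 without WT IR animal 3. Only Orc1 and Cdt1 did not overlap (4.26%, against 8.36% of all genes lower), and no member was higher without overlap in NIR or IR (8.14% and 9.23% of all genes). Intervals within 0.5 log2 units of 0 numbered 36 in NIR and 39 in IR, and all 47 lay within 1.

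**Figure D4:**
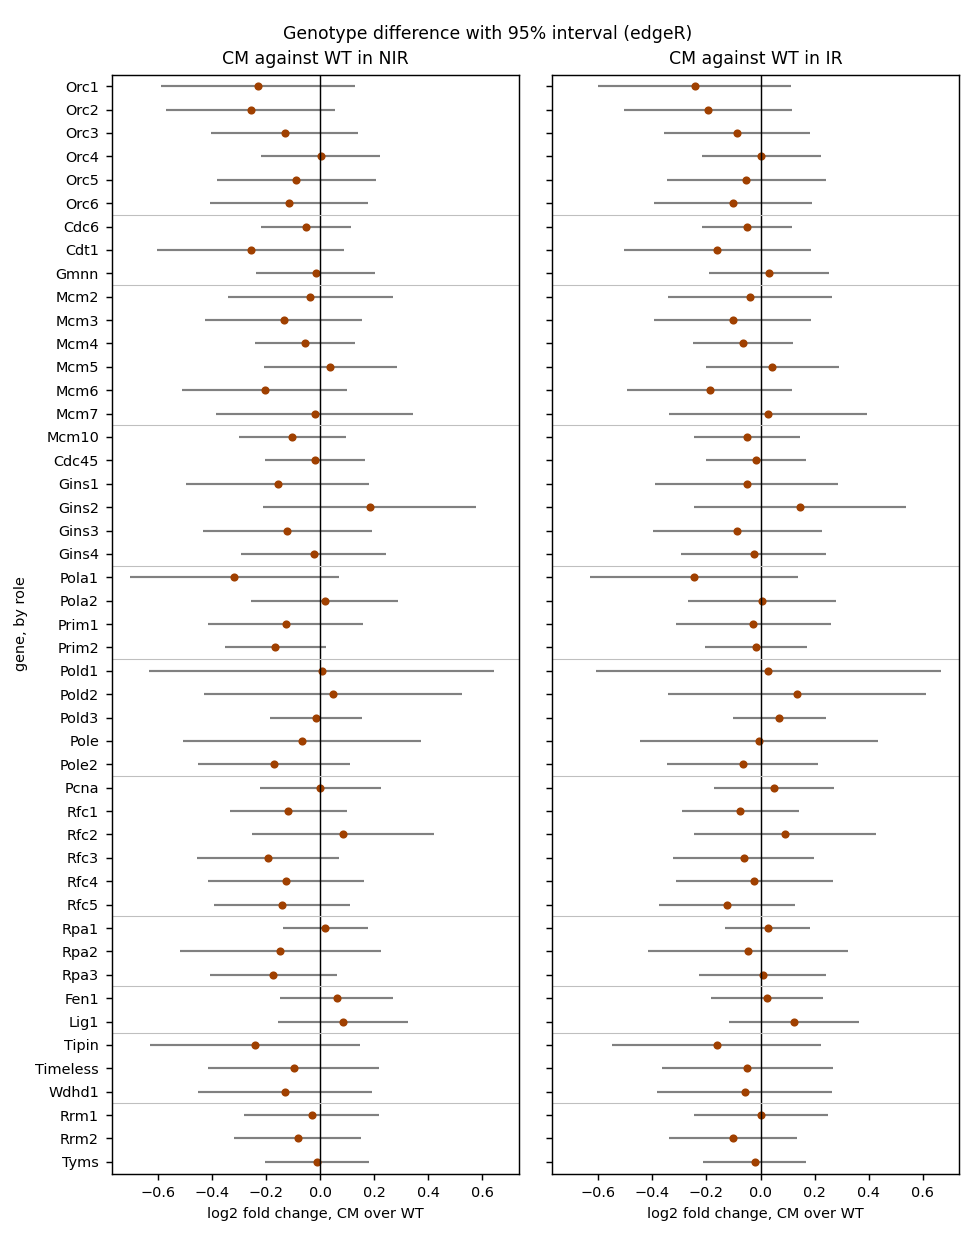
Log2 fold change of CM over WT (points) with 95% intervals from edgeR (bars) for the 47 genes by role, without irradiation on the left and after it on the right. Every interval crosses 0, and Pold1 has the widest in both panels.

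The difference of the irradiation responses, CM minus WT, was called for 0 members and 0 of all genes by edgeR, DESeq2, limma-voom and the block (0%); at an unadjusted p under 0.05 edgeR called 0 members and 0.726% of all genes. Fitted values were positive for 38 of 47 (median 0.039, from -0.038 for Fen1 to 0.18 for Rpa3), against 7792 of all 14599 genes (median 0.0086), 46.6% of which were negative. Without CM animal 3 the median was 0.012 with 18 lower and 0 called, against 9 lower in the full fit, and without WT NIR animal 3 it was -0.010 with 28 lower, so the lean rested on single animals.

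The levels of the members, like those of all genes, followed transcript GC content in a way that split by library series. Across the 47 genes, Spearman's rho between relative level and GC content was 0.173 to 0.669 in the 6 libraries of series A and -0.439 to -0.557 in the 6 of series B. Over all tested genes with a GC value the split was the same way, with 0.0070 to 0.335 in series A and -0.187 to -0.352 in series B. These are correlations across genes of 1 library, given as a description, since genes are not independent and share the library's preparation. Relative levels are centred on the 12 libraries, 6 in each series. A positive rho in series A therefore goes with a negative one in series B, and the 2 signs are not separate observations. The 12 members of highest GC (52.4 to 60.7%) stood at 0.29 and 0.22 in CM animal 2 and at -0.23 and -0.14 in CM animal 3, a series A and a series B animal, and Pold1 was among them. The 12 of lowest GC (37.3 to 45.4%) differed less there, from -0.020 to 0.039. With a per-library GC offset, an alternative chosen after seeing the data, 0 members were called in any comparison, and the medians were -0.070 and -0.023 for irradiation in WT and CM and -0.069 and -0.039 for CM over WT in NIR and IR. The part of GC content in the spread between animals was otherwise not tested.

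**Figure D5:**
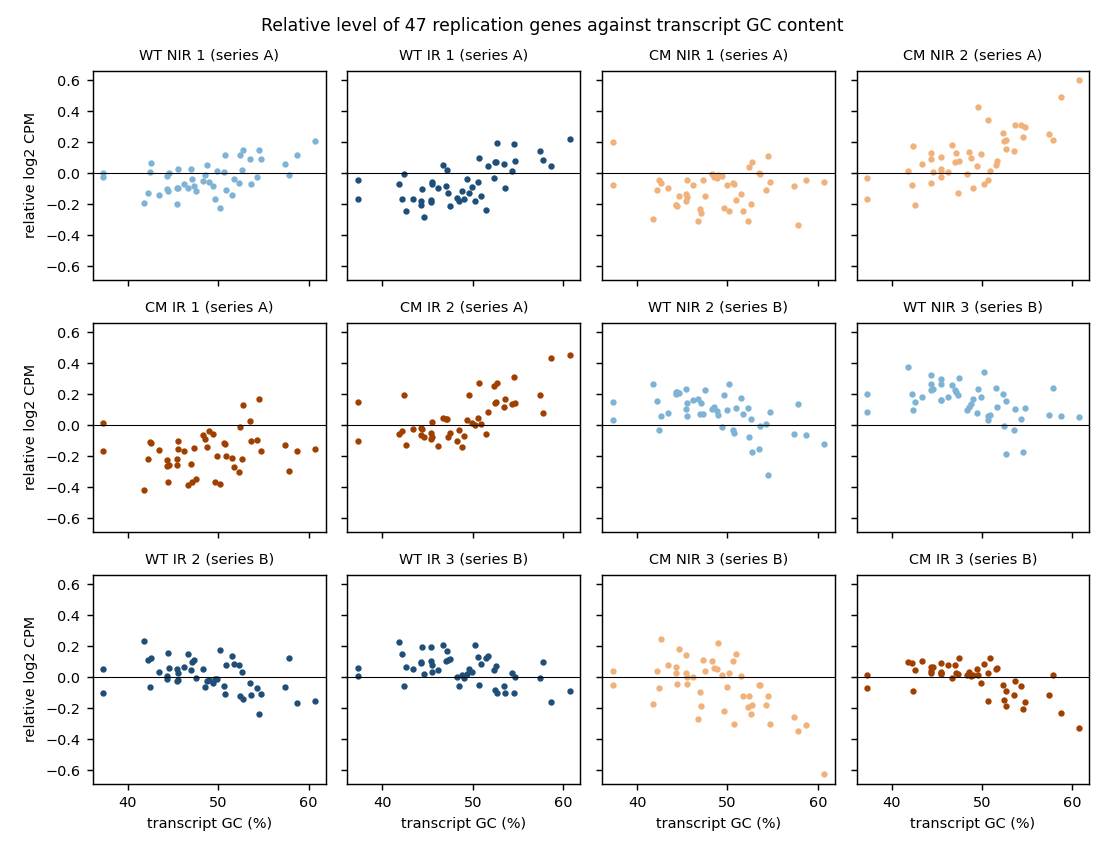
Relative level (log2 CPM minus the gene's mean over 12 libraries) of the 47 genes against transcript GC content in percent, 1 panel per library and 1 point per gene. The points slope upward in the 6 series A panels and downward in the 6 series B panels, and one point of highest GC, Pold1, stands at 0.60 in CM NIR 2 and -0.63 in CM NIR 3.

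Of 51 other genes of replication and its control, all tested, 0 were called by edgeR without the animal block in any of the 4 comparisons of groups, in the difference of responses or in the average over genotypes. With the block edgeR called 1, Top2a, lower in the average over genotypes (0.651% of all genes), with values given below. With both libraries of CM animal 2 left out, edgeR called Donson (0.34 ± 0.098, adjusted p = 0.0483) and Samhd1 (0.64 ± 0.19, adjusted p = 0.0484) higher for CM over WT in NIR. It called E2f6 (-0.36 ± 0.099, adjusted p = 0.0399) and Shmt1 (-0.47 ± 0.13, adjusted p = 0.0408) lower. These 4 genes were chosen after their values were seen. The share of all genes called in that fit is not given here, so the 4 calls cannot be read as particular to this list. With irradiation 40 were fitted lower in WT (78.4%, against 52.6% of all genes; median -0.060) and 35 in CM (68.6%, against 50.4%; median -0.034). For CM over WT these were 28 in NIR and 29 in IR (54.9% and 56.9%, against 47.4% and 47.1%). Leaving out CM animal 3 gave 39 lower with irradiation in CM (median -0.064). For CM over WT it gave 27 in NIR and 25 in IR, and 0 were called. All 8 genes for the kinases and adaptors that fire origins were fitted lower in both genotypes, with medians of -0.14 and -0.090 (-0.12 in CM without CM animal 3). Cdc7, the kinase that starts the helicase, stood at 51.8, 55.8 and 52.0 CPM in WT NIR, 43.0, 43.2 and 47.6 in WT IR, 49.0, 61.1 and 49.7 in CM NIR, and 44.6, 51.5 and 48.6 in CM IR. All 3 WT IR libraries lay under the WT NIR libraries, and the fitted change was -0.25 ± 0.10 in WT (unadjusted p = 0.0336, adjusted p = 1) and -0.14 ± 0.10 in CM. Dbf4, its activating subunit, was at 109, 111 and 114 CPM in WT NIR, 88.0, 99.3 and 103 in WT IR, 119, 107 and 133 in CM NIR, and 106, 101 and 111 in CM IR. It was lower in all 6 animals, with differences of -0.081 to -0.31 and fitted values of -0.20 ± 0.093 in WT and -0.17 ± 0.093 in CM (adjusted p = 1 in both; -0.11 ± 0.10 in CM without CM animal 3). Clspn, the checkpoint adaptor of the fork, was lower in all 6 animals too (-0.071 to -0.17). E2f1, the transcription factor of S phase genes, was at 52.5, 40.7 and 45.5 CPM in WT NIR, 58.4, 42.3 and 43.8 in WT IR, 47.8, 56.3 and 37.2 in CM NIR, and 49.2, 52.9 and 39.3 in CM IR. Series A libraries were higher than series B libraries in each group, and the fitted values for irradiation were 0.060 ± 0.19 in WT and 0.0011 ± 0.19 in CM (-0.018 ± 0.19 without CM animal 3). Tk1, thymidine kinase, was highest in CM animal 2 and had fitted values of -0.12 ± 0.25 in WT and -0.032 ± 0.25 in CM. Rrm2b, the p53-inducible reductase subunit, stood at 19.1, 18.8 and 19.0 CPM in WT NIR, 16.9, 17.4 and 19.1 in WT IR, 20.3, 14.4 and 17.3 in CM NIR, and 16.8, 13.9 and 16.9 in CM IR, and its fitted values for irradiation, -0.093 ± 0.14 in WT and -0.12 ± 0.14 in CM, did not pass (adjusted p = 1 in both). E2f8, a repressor of the E2F family chosen after its values were seen, was called lower after irradiation by DESeq2 in WT (-0.18 ± 0.051, adjusted p = 0.0445) and in the average over genotypes (-0.14 ± 0.036, adjusted p = 0.00847), but in neither by edgeR. DESeq2 called 0.959% of all genes in WT and 1.16% in the average, either way.

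Genes of mitosis were looked at beside these. Of 16 mitosis markers, 14 were fitted lower after irradiation in WT (median -0.12) and 15 in CM (median -0.14), 0 of them called by edgeR, with 1 at an unadjusted p under 0.05 in each genotype (6.25%, against 4.05% and 1.62% of all genes). When CM animal 3 was left out, 13 were fitted lower in CM (median -0.13). None then had an unadjusted p under 0.05 there. Averaged over genotypes with the animal as a block, edgeR called 4 of the 16 lower (0.651% of all genes), and 0 of the 47 replication members. The 4, chosen after their values were seen, were Mki67 (-0.21 ± 0.036, adjusted p = 0.0434), Kif11 (-0.17 ± 0.029, adjusted p = 0.0429), Cenpe (-0.17 ± 0.027, adjusted p = 0.0360) and Top2a, which is also on the list of other replication genes (-0.17 ± 0.030, adjusted p = 0.0479). The first 3 and Bub1 were called by the same block fit without CM animal 3 (adjusted p = 0.0397 to 0.0459), where 160 of all 14806 genes were called lower. Top2a then was not (-0.16 ± 0.034, adjusted p = 0.0588). For CM over WT, 2 of the 16 markers were fitted lower in NIR (12.5%, against 47.4% of all genes), with a median of 0.053. In IR 4 were (25%, against 47.1%), with a median of 0.034. EdgeR called 0 in either, and DESeq2 called 1 higher in NIR (501 of all 14599 genes). Without CM animal 3, 7 were fitted lower in NIR (43.8%, against 47.1% of all genes) and 8 in IR (50%, against 46.2%). In bulk RNA, fewer cycling cells and less RNA of these genes per cell cannot be told apart.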

How the data were processed

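RNA from 12 libraries of sorted LSK cells was prepared with stranded KAPA RNA HyperPrep libraries after ribosomal RNA removal, per the labels' protocols. The submitters' processing notes name mm10 as the build and list HTSeq 0.6.1p1, TopHat2 and bcl2fastq 2.18.0.12 without their roles. How strand was treated in the counting, and with which annotation, is not given in the sources used here. The deposited counts are whole reads per gene, 1 column per library. The deposited RPKM values divide them by exon length and library size, and were used to compare levels between genes and in alternatives. 0 columns belonged to other samples.

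The counts of all genes were filtered (filterByExpr, minimum count 10, minimum total 15), TMM-scaled and fitted with 1 mean for each of the 4 groups in edgeR 4.0.16 (quasi-likelihood test, Benjamini-Hochberg over 14599 genes, threshold 0.05; R 4.3.3). Errors are SE of the fit and intervals are 95%. CPM are TMM-scaled, and log2 CPM used a prior count of 2. The 6 comparisons were irradiation in each genotype and averaged, genotype in NIR and IR, and the difference of responses. Alternatives were DESeq2 1.42.0, limma-voom (limma 3.58.1), RLE scaling, no filter, a library series term, limma on log2(RPKM + 0.1) and log2(RPKM + 1), each library or animal left out, the animal as a block (in limma-voom, correlation 0.723, for the genotype), and, chosen after seeing the data, a GC offset. The code was tested on simulated data.

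The labels give the NIR and IR library of an animal the same animal number, so they are paired; deviations from group means correlated at 0.672, 0.504 and 0.412 in WT and 0.790, 0.844 and 0.125 in CM. The members, the lists of other genes and the tests were chosen with earlier results of these data known. Values in every library are given for the 3 members with the smallest p in each comparison, the most abundant member of each role, and Mcm2, Cdc6, Cdt1, Gmnn, Pcna and Rrm2; of the other replication genes, Rrm2b, E2f1, Cdc7, Dbf4, Clspn and Tk1 are named. GC content is the median over GENCODE M21 transcripts and was found for all 47 members and 98.2% of tested genes. Depth was 68.5 to 110.8 M counts per library.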

Additional observations from a re-analysis of the deposited data

How the results depend on the processing

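Of 872 values recomputed under alternatives, 868 scored as unchanged. Single genes were scored by sign and side of the threshold, and medians by a move smaller than the replicate spread. The sign of a median was not part of the score. For CM over WT in IR the median scored as unchanged in all 28 alternatives though it ran from -0.0929 to 0.0305. Single genes, none past the threshold in the main fit, made up 516 of the 868, so the score is no measure of robustness. The log2 fold changes of the 3 members of smallest p in each comparison kept their sign. The number of members called stayed at 0 in the 6 comparisons under each alternative that could be fitted, with an exception. For CM over WT in NIR without both libraries of CM animal 2, 2 were called (range over left-out libraries and animals 0 to 2). The share of all genes called in that fit is not given here. With libraries or animals left out, the median over the 47 members ran from -0.1257 to -0.0269 for irradiation in WT (-0.1257 without WT NIR animal 1), from -0.078 to 0.0346 in CM (0.0346 without CM IR animal 1), from -0.0929 to 0.0305 for CM over WT in IR, and from -0.0101 to 0.1196 for the difference of responses (0.1196 without CM NIR animal 2). The causes were not tested. The replicate block, with the animal as the block, changed no member's call. With it the medians were -0.0617 and -0.022 for irradiation in WT and CM, and over all genes it took the calls from 17 to 163 and from 1 to 0, and for CM over WT in limma-voom, without and with the block, from 218 to 5 in NIR and from 156 to 13 in IR. The replicate block with the GC offset gave medians of -0.0624 and -0.021 for irradiation. RLE scaling moved the mean difference in CM animal 3 from 0.0497 to 0.0105. Depth does not limit these genes; 3 animals a group and their spread do, and the median standard error was 0.126 on the log2 scale for a single comparison.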

Other observations

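Summed over the 47 members, expression ran from 6440 CPM in CM IR 1 to 8059 CPM in WT NIR 3, and was 7109 and 7091 CPM in the NIR and IR libraries of WT animal 1.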
